A study of Mus musculus with 4 samples.

Results

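The genes described here are 7 genes used in mice as signs of alternative macrophage activation: Arg1, Chil3, Retnla, Mgl2, Clec10a, Tgm2 and Il4ra. They were chosen by name, as 7 of the 32285 genes in the count tables, and were followed through every cell that had 500 or more UMIs, showed 300 or more genes and had no more than 10% mitochondrial UMIs. A UMI is a molecular tag that marks 1 captured transcript. The cells were macrophages sorted from mouse perigonadal white fat as live, lineage-negative cells that carried CD45, CD11b and CD64, and were profiled with the 10x Genomics Chromium 3′ workflow. The groups were BLIMP1 conditional knockout mice on a high-fat diet (CKO HFD), control mice on a high-fat diet (WT HFD), knockout mice on a normal diet (CKO normal diet) and control mice on a normal diet (WT normal diet). Each group is 1 library. The sources used here do not give the Cre driver, the deleted exons, the age of the mice, the length of the diet or the number of animals behind a library.

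In mice, interleukin-4 and interleukin-13 bind receptors that share the IL-4 receptor alpha chain, encoded by Il4ra, and activate the transcription factor STAT6 in macrophages. Genes raised by this signal include those for arginase 1 (Arg1), the chitinase-like lectin Ym1 (Chil3), the secreted peptide RELM alpha (Retnla), the galactose-type lectins of Mgl2 and Clec10a, and transglutaminase 2 (Tgm2). These genes are often read together as 1 state, although several of them also answer to other signals. BLIMP1, encoded by Prdm1, is a transcriptional repressor. Fat macrophages are commonly grouped into LYVE1-positive resident cells, TREM2-positive lipid-associated cells and CCR2-positive cells derived from monocytes.

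After filtering, 8731 CKO HFD cells, 4650 WT HFD cells, 4302 CKO normal diet cells and 3705 WT normal diet cells remained, with 42551849, 74442649, 24513539 and 21788293 UMIs in that order. The median depth was 3923, 14492.5, 3939 and 4092 UMIs per cell, so WT HFD was read far more deeply per cell than the others. The mitochondrial limit removed 7, 400, 23 and 23 cells. Levels are therefore given as UMIs per 1000000 UMIs of the library (CPM), and shares of cells after each cell had been thinned at random to 2000 UMIs, which left out 1076, 67, 820 and 675 shallower cells. All 9 macrophage markers checked were detected in every library. Of the cells at equal depth, 57, 48, 4 and 2 were fibroblast-like, 6, 7, 4 and 11 lymphoid-like and 6, 12, 53 and 63 dendritic-like by their markers. Pairs of libraries shared 2 to 9 cell barcodes. Prdm1 itself stood at 22.9, 21.9, 28.4 and 22.9 CPM, so its level was not lower in either library labelled CKO. The 3′ counts do not show which exons a transcript holds, so they check neither the deletion nor the labels, and CKO and WT are used below as the labels give them.

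With 1 library per group there is no replicate, no test and no p-value in what follows. The intervals cover counting error at 95% and not the spread between animals or preparations, which cannot be told apart from the group. A gene is counted as higher or lower when its CPM ratio passed 1.5 times in that direction. In summed counts, fewer cells of a kind and less RNA per cell cannot be told apart, and for that reason the levels are also given within sets of cells.

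The promoters of the members with an entry in the RefSeq promoter table (GRCm38.p6) are shown first for the genes on which the results below turn: Retnla and Mgl2, which were found together more often than their shares give, and Chil3, which met both less often. Of the 7 members 4 matched by symbol, namely Retnla, Mgl2, Chil3 and Il4ra. Each window runs from 250 bases before to 50 bases after the annotated start, 5′ to 3′ on the gene's strand. Capitals mark matches, on either strand, to the letters of 6 motifs: TTC and GAA with 4 bases between them for STAT6, the same with 3 bases between them for other STAT factors, TTGCNNAA for C/EBP, GAGGAA for PU.1, GAAAGTG for BLIMP1 and TATAAA for a TATA box.
Retnla, chr16:48842359-48842658, plus strand: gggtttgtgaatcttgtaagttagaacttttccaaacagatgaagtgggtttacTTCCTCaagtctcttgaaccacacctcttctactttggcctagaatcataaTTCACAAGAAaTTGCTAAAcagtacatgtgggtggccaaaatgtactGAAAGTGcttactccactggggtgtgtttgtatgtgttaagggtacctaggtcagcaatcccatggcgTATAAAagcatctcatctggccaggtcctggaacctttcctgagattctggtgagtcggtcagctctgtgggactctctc
Mgl2, chr11:70130107-70130406, plus strand: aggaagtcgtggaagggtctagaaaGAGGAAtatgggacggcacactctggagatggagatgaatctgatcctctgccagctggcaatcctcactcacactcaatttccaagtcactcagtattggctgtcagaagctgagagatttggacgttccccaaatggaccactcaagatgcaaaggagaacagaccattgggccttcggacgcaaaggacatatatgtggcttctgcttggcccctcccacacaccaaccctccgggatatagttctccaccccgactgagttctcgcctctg
Chil3, chr3:106167515-106167814, minus strand: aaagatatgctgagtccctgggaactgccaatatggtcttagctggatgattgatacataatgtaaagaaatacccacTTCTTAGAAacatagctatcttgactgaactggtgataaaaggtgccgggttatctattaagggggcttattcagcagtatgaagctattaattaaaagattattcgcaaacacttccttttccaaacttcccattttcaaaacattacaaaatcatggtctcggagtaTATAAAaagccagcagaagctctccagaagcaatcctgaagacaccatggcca
The Retnla window held 5 matches: STAT6 at -145, C/EBP at -134, BLIMP1 at -98, the TATA box at -30 and PU.1 on the minus strand at -196, each counted from the annotated start. The STAT6 and C/EBP matches lie next to each other without overlap. Chil3 held the STAT letters at -172 and TATAAA at -3, Mgl2 held PU.1 letters at -225, and the Il4ra window held none of the 6. Of all 32851 promoter windows of the same length, 6.95% held the STAT6 letters, 8.30% the STAT letters, 10.8% C/EBP, 28.3% PU.1, 4.81% BLIMP1 and 13.6% TATAAA. A match describes the letters in the window and nothing about binding in these cells.

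Retnla (ENSMUSG00000061100; GRCm38 and GENCODE M21, plus strand of chromosome 16, 48842551 to 48844461) encodes a secreted peptide of the resistin family. Its level was 11140 CPM in CKO HFD, 7198 CPM in WT HFD, 11451 CPM in CKO normal diet and 8740 CPM in WT normal diet. At equal depth 72.3%, 62.5%, 74.7% and 63.0% of cells held at least 1 Retnla UMI, and a cell with any held 33.8, 23.6, 28.4 and 23.2 UMIs of 2000 on average. Both CKO libraries stood above both WT libraries in level and in share. Retnla UMIs were also found in 12 of 57 fibroblast-like CKO HFD cells (21.1%) and 6 of 48 WT HFD ones (12.5%), at equal depth. Whether these UMIs came from free RNA, from doublets or from the cells themselves was not tested. All 5 markers of serous cavity macrophages, which also make Retnla, were detected in every library, and they summed to 8.93, 9.70, 67.3 and 63.2 CPM, and their part in the Retnla level was not tested.

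Mgl2 (ENSMUSG00000040950; plus strand of chromosome 11, 70130329 to 70137550) and Clec10a (ENSMUSG00000000318; same strand, 70156197 to 70170834) encode paired C-type lectins that bind galactose and N-acetylgalactosamine, and lie 18.6 kb apart. Mgl2 stood at 877, 643, 596 and 444 CPM in CKO HFD, WT HFD, CKO normal diet and WT normal diet, and was found in 61.4%, 51.2%, 54.0% and 45.2% of cells at equal depth. Clec10a stood at 217, 209, 407 and 403 CPM in the same order and was found in 30.2%, 28.1%, 45.3% and 41.8% of cells. The order of the libraries thus differed between the neighbours: Mgl2 was higher in both HFD libraries than in both normal diet libraries, and Clec10a was lower. Fibroblast-like cells held Mgl2 in 3 of 57 and 3 of 48 cells and Clec10a in 2 of 57 and 2 of 48 cells in CKO HFD and WT HFD.

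Il4ra (ENSMUSG00000030748; plus strand of chromosome 7, 125552120 to 125579474) encodes the receptor chain through which the other members can be raised. Its level was 37.5, 34.9, 48.1 and 54.5 CPM in CKO HFD, WT HFD, CKO normal diet and WT normal diet, with Poisson intervals of 35.7 to 39.4, 33.5 to 36.2, 45.4 to 51.0 and 51.5 to 57.7 CPM. At equal depth 7.26%, 6.81%, 10.6% and 12.3% of cells held it, against 3 of 57 and 2 of 48 fibroblast-like cells in CKO HFD and WT HFD. It was lower in both HFD libraries than in both normal diet libraries, and the intervals of CKO HFD and WT HFD overlapped, while those of CKO normal diet and WT normal diet did not.

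Arg1 (ENSMUSG00000019987; minus strand of chromosome 10, 24915221 to 24927484) encodes the enzyme that splits arginine into ornithine and urea. Its level was 88.2 CPM in CKO HFD, 21.2 CPM in WT HFD, 9.5 CPM in CKO normal diet and 7.76 CPM in WT normal diet. Its share of cells at equal depth was 6.13%, 2.55%, 0.862% and 0.858%, and at full depth 9.79%, 9.46%, 1.79% and 1.78%. The full-depth shares of CKO HFD and WT HFD were close while the levels and the shares at equal depth were not, and WT HFD cells were the deepest. Arg1 was concentrated in few cells: the 10 cells with most Arg1 held 11.3% of its UMIs in CKO HFD, 22.3% in WT HFD, 59.7% in CKO normal diet and 49.1% in WT normal diet. Among fibroblast-like cells 2 of 57 in CKO HFD and 0 of 48 in WT HFD held Arg1.

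Chil3 (ENSMUSG00000040809; minus strand of chromosome 3, 106147554 to 106167564) encodes a secreted lectin that binds sugars without chitinase activity. It stood at 72.2, 22.6, 8.77 and 10.4 CPM in CKO HFD, WT HFD, CKO normal diet and WT normal diet, and its share of cells at equal depth was 6.22%, 3.29%, 1.61% and 1.78%. None of the fibroblast-like cells held it. The near copy Chil4 had 0 UMIs in every library, although the annotated transcripts of Chil3 and Chil4 are 94.7% identical over their aligned length and 89.97% over their last 300 bases. How reads that fit both were assigned is not given, so the Chil3 count could include such reads. Chil3 is also made by neutrophils, whose markers summed to 28.4, 24.3, 78.5 and 105 CPM in CKO HFD, WT HFD, CKO normal diet and WT normal diet, and their part in the Chil3 level was not tested. Of the 6 neutrophil markers 4 were detected in CKO HFD, where S100a9 and Retnlg were at 0, and all 6 in each of the other libraries. In WT HFD S100a9 and Retnlg stood at only 0.0134 CPM each, so on S100a9 and Retnlg the HFD libraries hardly differed. The other markers did differ. Their ratios of CKO HFD over WT HFD were 3.08 for Mmp9, 2.17 for S100a8, 3.50 for Cxcr2 and 0.796 for Csf3r. Cxcr2 stood at only 0.376 and 0.107 CPM, and Csf3r, at 15.7 and 19.7 CPM, made up most of both sums.

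Tgm2 (ENSMUSG00000037820; minus strand of chromosome 2, 158116402 to 158146436) encodes an enzyme that crosslinks proteins. Its level was 52.2, 33.4, 38.9 and 42.2 CPM in CKO HFD, WT HFD, CKO normal diet and WT normal diet, and 6.81%, 5.17%, 6.89% and 8.28% of cells at equal depth held it. Fibroblast-like cells held Tgm2 in 6 of 57 cells (10.5%) in CKO HFD and 4 of 48 (8.33%) in WT HFD. The overall share was not above that in fibroblast-like cells. Whether those cells make Tgm2 themselves was not tested, so this comparison does not show how much of the share is background. The share did differ between sets of macrophages in WT HFD. Of cells with UMIs of Trem2 and none of Lyve1 or Ccr2, 8.39% held Tgm2 (6.48% to 10.6%). Of cells with UMIs of Lyve1 and none of Trem2 or Ccr2, 0 of 104 held it (0% to 3.48%).

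**Figure D1:**
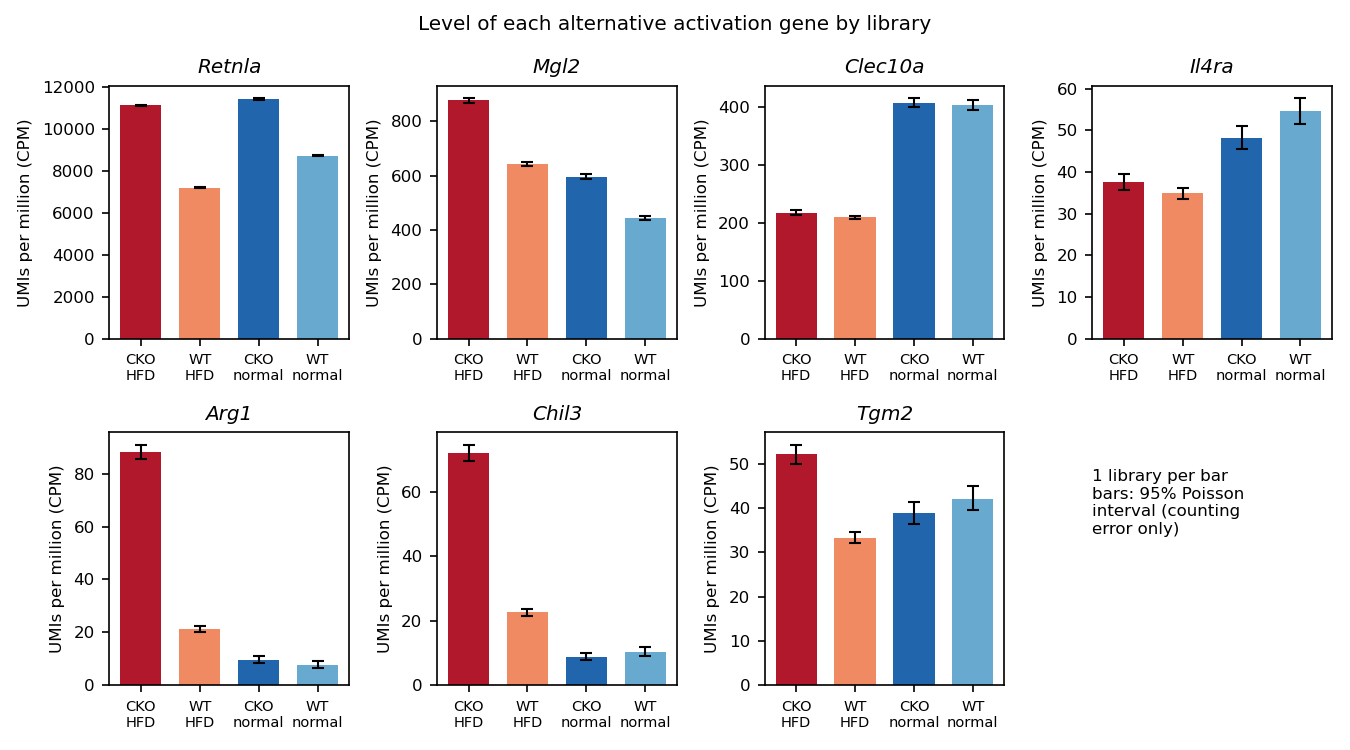
Level of each member in UMIs per 1000000 UMIs of the library (CPM, linear axes from 0, own scale per gene) for the 4 libraries, with 95% Poisson intervals for counting error. Arg1 reaches 88.2 CPM and Chil3 72.2 CPM in CKO HFD, above the other 3 libraries, while Clec10a stands at 217 and 209 CPM in CKO HFD and WT HFD, against 407 and 403 CPM in CKO normal diet and WT normal diet.

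Under the high-fat diet, 4 of the 7 members were over 1.5 times higher in CKO HFD than in WT HFD and 0 were lower, against a background of 5.38% higher and 20.7% lower among 7864 genes with at least 10 CPM in either library. Arg1 was 4.17 times as high (3.93 to 4.43), Chil3 3.19 times (3.00 to 3.38), Tgm2 1.56 times (1.48 to 1.66) and Retnla 1.55 times (1.54 to 1.55). Mgl2 was 1.36 times as high (1.35 to 1.38), Clec10a 1.04 times (1.01 to 1.06) and Il4ra 1.08 times (1.01 to 1.14), all short of the threshold. The members' median log2 ratio was 0.63, and that of all genes tested was -0.22. Relative to that shift, the log2 differences were 2.28 for Arg1, 1.89 for Chil3, 0.86 for Tgm2, 0.85 for Retnla, 0.66 for Mgl2, 0.32 for Il4ra and 0.27 for Clec10a. The Retnla and Tgm2 ratios lie near the threshold: set against genes of like span, Retnla fell short of it, with a log2 ratio of 0.51, and it did so too at 0.52 when the 5 sets of cells described below were weighted equally. Over 5 equal groups of genes by span, the median log2 ratio ran from 0.12 in the shortest to -0.66 in the longest, and Retnla spans 1.91 kb.

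Under the normal diet, 0 of the 6 members with at least 10 CPM in either library were over 1.5 times higher or lower in CKO than in WT, against a background of 0.493% higher and 0.592% lower among 8111 genes. Mgl2 was 1.34 times as high (1.31 to 1.38) and Retnla 1.31 times (1.30 to 1.32). Clec10a had a ratio of 1.01 (0.982 to 1.04), Tgm2 0.922 (0.841 to 1.01), Il4ra 0.883 (0.814 to 0.958) and Chil3 0.846 (0.698 to 1.02). Arg1, below 10 CPM in both libraries, had a ratio of 1.23 (1.00 to 1.5). The median log2 ratio was 0.02 for the members and 0.03 for all genes tested. Retnla and Mgl2 were thus higher in CKO than in WT beyond counting error under both diets, and the Arg1, Chil3 and Tgm2 differences of the HFD pair were not seen at that size in the normal diet pair, whose libraries are other ones. Whether the knockout difference itself changed with diet could not be tested with 1 library per group.

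In control mice, 2 members were higher and 2 lower in WT HFD than in WT normal diet, against 13.1% and 24.6% of 8342 genes. Arg1 was 2.73 times as high (2.33 to 3.22) and Chil3 2.18 times (1.90 to 2.52). Clec10a had a ratio of 0.519 (0.505 to 0.533) and Il4ra 0.639 (0.597 to 0.685), both lower in WT HFD. Mgl2 had a ratio of 1.45, Retnla 0.824 and Tgm2 0.791. The Il4ra call did not hold under 5 of the 11 other settings tried. With TMM scaling, which moved the all-gene median from -0.18 to 0.10, the split was 3 higher and 1 lower, since Mgl2 then passed the threshold and Il4ra did not.

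In the libraries labelled CKO, 2 members were higher and 1 lower in CKO HFD than in CKO normal diet, against 11.8% and 42.6% of 8235 genes. Arg1 was 9.28 times as high (8.13 to 10.6) and Chil3 8.23 times (7.16 to 9.49), and Clec10a had a ratio of 0.533 (0.518 to 0.548). Mgl2 had a ratio of 1.47, Tgm2 1.34, Retnla 0.973 and Il4ra 0.779. The median of all genes lay at a log2 ratio of -0.44, and relative to it Clec10a stood at -0.47, Il4ra at 0.08 and Retnla at 0.40. With TMM scaling the split was 4 higher and 0 lower, the Clec10a log2 ratio being -0.42, while Il4ra and Retnla changed sign between settings. By gene span the all-gene median ran from 0.35 in the shortest group to -1.20 in the longest. The Arg1 ratio was 20.4 when the 10 cells richest in Arg1 were left out of each library, since those cells held most of the CKO normal diet count, and 5.36 when the 5 sets of cells were weighted equally. Each HFD library serves in 2 of these comparisons and so does each normal diet library, so the 4 sets of ratios are not independent of one another.

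**Figure D2:**
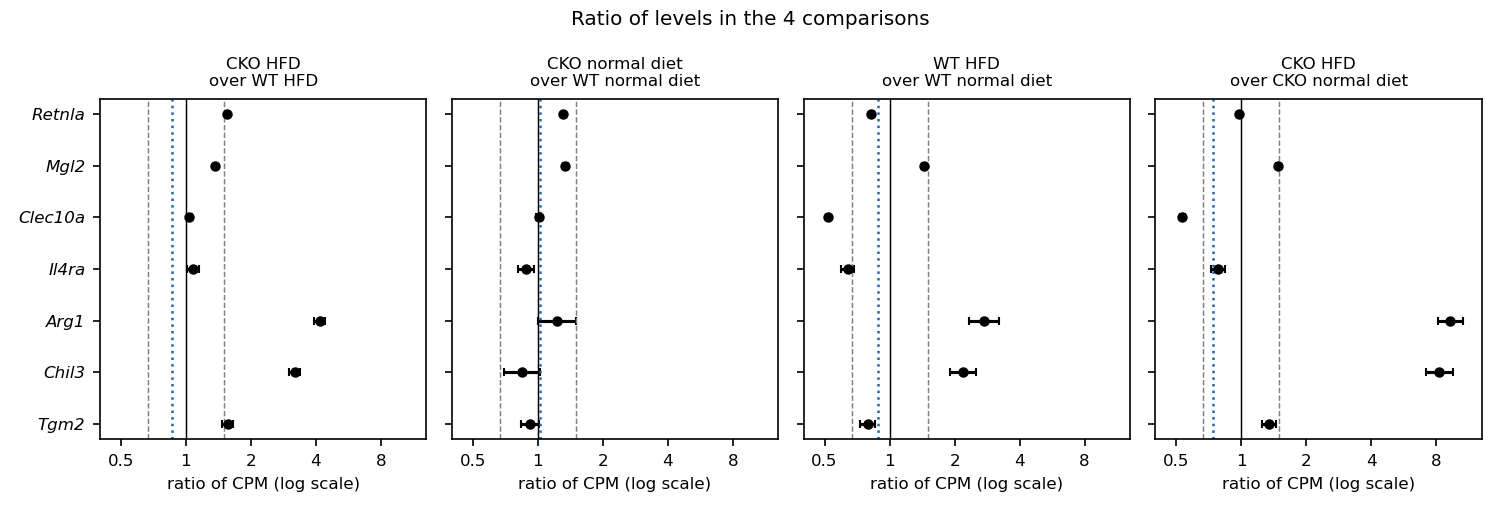
Ratio of CPM in the 4 comparisons (log axis) for each member, with 95% counting intervals that are often narrower than the point. Dashed grey lines mark 1.5 times higher or lower and the dotted blue line the median ratio of all genes tested; Arg1 and Chil3 lie to the right of 1.5 in 3 of the 4 panels and no member does so in the panel for CKO over WT under the normal diet.

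To see whether the members share cells, the cells at equal depth were split by their UMIs of Lyve1, Trem2 and Ccr2 into those with exactly 1 of the 3 genes, those with several and those with none. The Lyve1-only, Trem2-only and Ccr2-only sets held 499, 749 and 2997 cells in CKO HFD, 104, 727 and 1987 in WT HFD, 426, 102 and 1607 in CKO normal diet and 223, 98 and 1525 in WT normal diet. Genes not used for the split followed it in part. Folr2, a resident marker, was at 1082, 1020, 917 and 771 CPM in the Lyve1-only cells of the 4 libraries, and Gpnmb, a lipid-associated marker, was at 419, 746, 68.1 and 322 CPM in the Trem2-only cells, each the highest of the 5 sets. Plac8, a monocyte marker, was at 149, 29.4, 149 and 199 CPM in the Ccr2-only cells and at 76.6, 49.4, 285 and 338 CPM in the cells with none of the 3 markers, so it was highest in the Ccr2-only set in CKO HFD and not in the other libraries. Il1b, also on the monocyte list, was at 539, 452, 714 and 969 CPM in the Ccr2-only cells, the highest of the 5 sets in each library. At 2000 UMIs a missing UMI does not show a missing transcript, so these are sets by detection and not cell types.

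Among the 3 single-marker sets, 5 of the 7 members were highest in the same one in all 4 libraries: Retnla, Mgl2, Clec10a and Il4ra in Lyve1-only cells, and Tgm2 in Trem2-only cells. In Lyve1-only cells Retnla reached 22659 CPM in CKO HFD, 17424 in WT HFD, 13435 in CKO normal diet and 9929 in WT normal diet, and in Trem2-only cells 5612, 3595, 6126 and 3452 CPM. Mgl2 stood at 1437, 1215, 900 and 735 CPM in Lyve1-only cells and at 430, 271, 376 and 189 CPM in Trem2-only cells. In each library the level in Lyve1-only cells was thus over 2 times that in Trem2-only cells for both genes. In WT normal diet Retnla was higher still in cells with several markers, at 11357 CPM, and nearly as high in Ccr2-only cells, at 9689 CPM, and with another random thinning it was highest there. Il4ra stood at 73.3, 90.2, 72.8 and 82.8 CPM in Lyve1-only cells, and its intervals overlapped those of Trem2-only cells in both normal diet libraries.

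Lyve1-positive cells made up 14.7% of cells at equal depth in CKO HFD and 5.89% in WT HFD, and 21.1% in CKO normal diet and 14.4% in WT normal diet. Trem2-positive cells made up 24.0%, 35.9%, 7.58% and 7.95% in the order CKO HFD, WT HFD, CKO normal diet and WT normal diet. All 6 resident markers were detected in every library and summed to 3464, 1598, 2699 and 2293 CPM, so they stood higher in the CKO library of each diet, as Retnla and Mgl2 did. Retnla was higher in CKO than in WT in all 5 sets under both diets, with ratios of 1.24 to 1.77 under HFD and 1.11 to 1.77 under the normal diet. Mgl2 was likewise higher in all 5 sets, with ratios of 1.11 to 1.59 under HFD and 1.22 to 1.99 under the normal diet. Clec10a had ratios on both sides of 1, 0.801 to 1.25 under HFD and 0.859 to 1.00 under the normal diet.

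**Figure D3:**
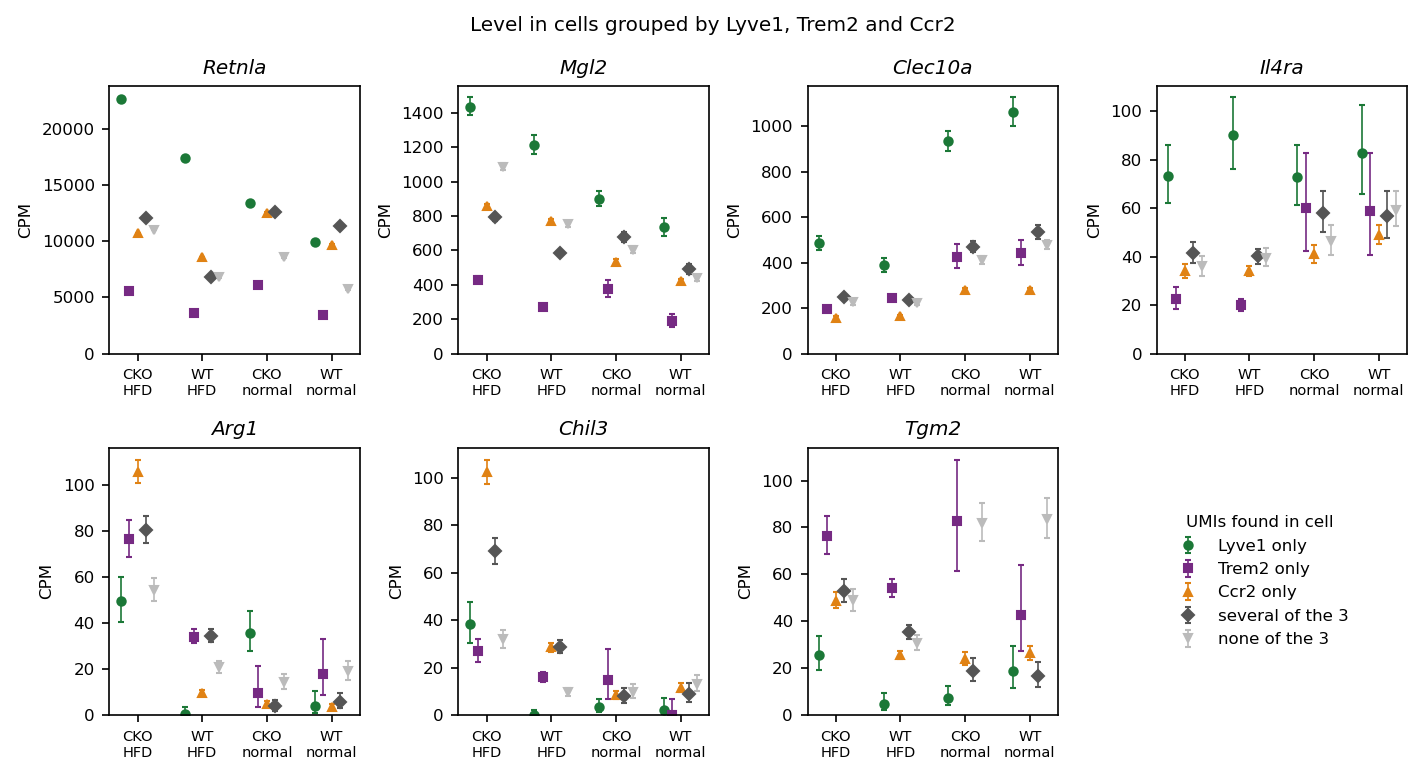
Level (CPM, linear axes, own scale per gene, 95% Poisson intervals) of each member in cells at equal depth that held UMIs of Lyve1 only, Trem2 only, Ccr2 only, several of the 3 or none, for the 4 libraries. Among the 3 single-marker sets Retnla, Mgl2 and Clec10a are highest in Lyve1-only cells, while Arg1 reaches 106 CPM in Ccr2-only cells of CKO HFD and 9.58 CPM in those of WT HFD.

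The diet difference of the lectin pair was also present within sets. Mgl2 was higher with HFD in all 5 sets, with ratios of 1.19 to 1.82 in WT and 1.14 to 1.80 in CKO, and Clec10a was lower in all 5, with ratios of 0.367 to 0.590 in WT and 0.460 to 0.563 in CKO. The libraries held 0.247 Clec10a UMIs per Mgl2 UMI in CKO HFD (0.241 to 0.253), 0.325 in WT HFD (0.319 to 0.331), 0.683 in CKO normal diet (0.666 to 0.701) and 0.907 in WT normal diet (0.881 to 0.934). This quotient uses counts of the same library and does not depend on the scaling between libraries. It was lower with HFD than with the normal diet within each genotype, and lower in CKO than in WT within each diet. Among Lyve1-only cells of CKO HFD and WT HFD it was 0.338 and 0.320, with overlapping intervals, so the genotype order did not hold in that set under HFD. The annotated transcripts of the pair are 89.5% identical over their aligned length and 66.7% over their last 300 bases, and how reads that fit both were assigned is not given. All 8 markers of dendritic cells, some of which also make both lectins, were detected in every library, and they summed to 38.0, 40.3, 251 and 266 CPM in CKO HFD, WT HFD, CKO normal diet and WT normal diet. Without the fibroblast-like, lymphoid-like and dendritic-like cells, the Clec10a log2 ratio of CKO HFD over CKO normal diet was -0.90, against -0.91 with them. This removed only 69 of 8731 CKO HFD cells and 60 of 4302 CKO normal diet cells. The label asked for at least 3 markers after thinning, and the 1076 and 820 shallower cells were not classified. With so few cells removed, the comparison cannot show how much of the Clec10a level came from dendritic cells.

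**Figure D4:**
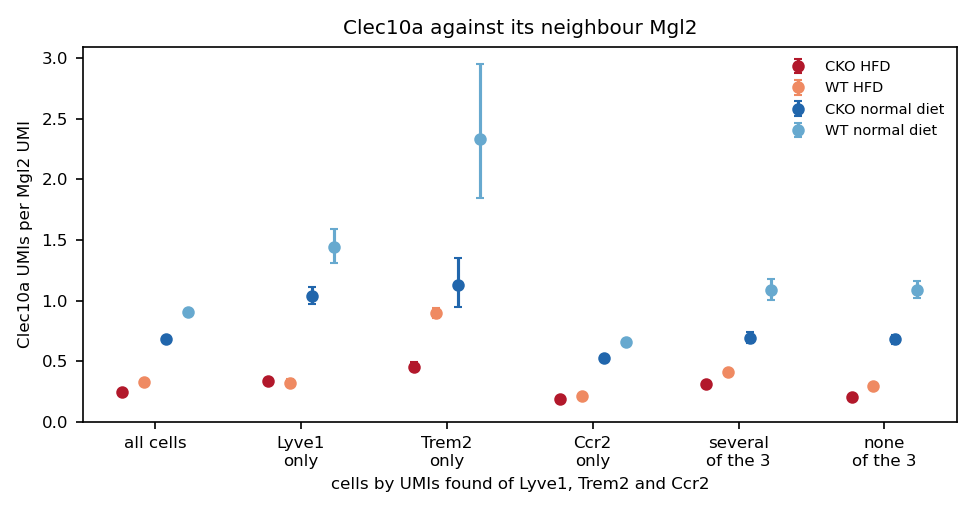
Clec10a UMIs per Mgl2 UMI (linear axis from 0, 95% counting intervals) in all cells and in the 5 sets, by library. In every set both HFD libraries lie below both normal diet libraries; over all cells the values are 0.247 and 0.325 against 0.683 and 0.907.

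Arg1 had no fixed place among the 3 single-marker sets. In CKO HFD it was highest in Ccr2-only cells, at 106 CPM (101 to 111), with 76.3 CPM in Trem2-only and 49.5 CPM in Lyve1-only cells. In WT HFD it was highest in Trem2-only cells, at 34.1 CPM (31.1 to 37.3), beside 34.3 CPM in cells with several markers, with 9.58 CPM in Ccr2-only cells and 1 UMI in all Lyve1-only cells. Within Ccr2-only cells Arg1 was therefore 11.02 times as high in CKO HFD as in WT HFD, from 1747 UMIs in 302 cells and 296 UMIs in 121 cells. Within Trem2-only cells it was 2.24 times as high (from 348 and 472 UMIs), and the ratio was above 1 in all 5 sets. Of the Arg1-positive cells at equal depth 30.1% held Trem2 in CKO HFD, against 23.6% of Arg1-negative cells, and 57.3% did in WT HFD, against 35.3% of negative cells.

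The normal diet libraries had too few Arg1 UMIs to place the gene. In CKO normal diet it was highest in Lyve1-only cells, at 35.6 CPM, but 59 of those 67 UMIs came from 1 cell, and without that cell the level was 4.29 CPM, against 4.90 CPM in Ccr2-only cells. In WT normal diet the 17.9 CPM of Trem2-only cells rested on 10 UMIs. Of the other genes looked at in Arg1-positive cells, which were chosen after earlier values had been seen, Hilpda, a lipid-droplet gene raised in low oxygen, was held by 39.2% of them against 12.4% of negative cells in CKO HFD, and by 23.1% against 11.3% in WT HFD. The chemokine gene Ccl24 was held by 41.8% against 20.9% in CKO HFD. In WT HFD it was held by 11.97% (6.70% to 19.3%) against 8.80%, a difference within counting error.

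Of the single-marker sets, Chil3 was highest in Ccr2-only cells in CKO HFD, at 102 CPM, in WT HFD, at 28.5 CPM, and in WT normal diet, at 11.4 CPM. In CKO normal diet the Trem2-only cells were highest with 9 UMIs, 6 of them from 1 cell, and in WT normal diet the cells with none of the 3 markers stood at 13 CPM. Within Ccr2-only cells the ratio of CKO HFD over WT HFD was 3.59, and that of WT HFD over WT normal diet 2.5. Of Chil3-positive cells 79.6% held Ccr2 in CKO HFD, against 57.0% of negative cells, and 77.5% against 64.7% did in WT HFD. Under the normal diet no such excess was seen beyond counting error. There the shares were 55.4% (41.5% to 68.7%) against 56.9% in CKO and 64.8% (50.6% to 77.3%) against 60.0% in WT. Plac8, a gene of monocytes, was held by 26.1% of Chil3-positive cells against 5.49% of negative ones in CKO HFD, 11.9% against 2.10% in WT HFD, 67.9% against 11.9% in CKO normal diet and 79.6% against 14.0% in WT normal diet. Chil3-positive cells held Plac8 more often than negative ones in all 4 libraries, and less often held the macrophage complement gene C1qa, with 48.1% against 82.5% in CKO HFD and 14.8% against 56.9% in WT normal diet.

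The genes found beside Tgm2 differed in frequency between the diets, while its highest set among those of Lyve1, Trem2 and Ccr2 did not. That placing depended on the markers. With sets made from Folr2, Gpnmb and Plac8, Tgm2 was highest in the Gpnmb set in WT HFD and in the Plac8 set in the other libraries. Among the Lyve1-only, Trem2-only and Ccr2-only sets it was highest in Trem2-only cells, at 76.5, 54.2, 82.7 and 42.9 CPM in CKO HFD, WT HFD, CKO normal diet and WT normal diet, the last with an interval that overlapped that of Ccr2-only cells. The Trem2-only values of CKO normal diet and WT normal diet rested on 51 and 24 UMIs. The cells with none of the 3 markers stood at 49.0 and 30.7 CPM in CKO HFD and WT HFD, and at 82.1 and 83.8 CPM in CKO normal diet and WT normal diet, where they held 64.1% and 62.4% of all thinned Tgm2 UMIs. Of Tgm2-positive cells 39.3% held Trem2 in CKO HFD and 51.5% in WT HFD, against 22.9% and 35.0% of negative cells, while 6.67% did in CKO normal diet and 2.79% in WT normal diet, below the 7.65% and 8.42% of negative cells. With the normal diet 43.3% of Tgm2-positive cells in CKO and 45.4% in WT held Ace, a gene of non-classical monocytes, against 3.49% and 3.78% of negative cells. With HFD 1.15% of Tgm2-positive cells in CKO (0.424% to 2.49%) and 3.80% in WT (1.75% to 7.09%) held Ace, against 0.729% (0.545% to 0.955%) and 0.897% (0.639% to 1.22%) of negative cells. Ace was thus rarer in the HFD libraries among Tgm2-negative cells too, and in WT HFD it was still more frequent in Tgm2-positive cells. Plac8 was held by 14.2% of Tgm2-positive cells in CKO HFD and 4.64% in WT HFD, against 6.22% and 2.30% of negative cells. Under the normal diet Plac8 was held by 60.0% of Tgm2-positive cells in CKO and 65.3% in WT, against 9.25% and 10.7%. Hilpda was held by 37.4% of Tgm2-positive cells in CKO HFD and 27.4% in WT HFD, against 12.3% and 10.7% of negative cells. Under the normal diet Hilpda was held by 3.33% of Tgm2-positive cells in CKO and 3.59% in WT, against 3.30% and 4.68%. All 5 markers of non-classical monocytes were detected in every library and summed to 416, 294, 935.5 and 1102 CPM in CKO HFD, WT HFD, CKO normal diet and WT normal diet. Most of each sum was Nr4a1, at 387, 269, 836 and 976 CPM in the same order. Among the other markers, the ratio of CKO HFD over WT HFD was 0.683 for Ace and 1.503 for Spn. Treml4 and Cd300e did not differ beyond counting error in that pair. The sums therefore do not show which HFD library held more non-classical monocytes, and the part of these cells in the Tgm2 level was not tested. Thinning to 2000 UMIs, which leaves out shallow cells and weights the others equally, moved the Tgm2 log2 ratio of WT HFD over WT normal diet from -0.34 to -1.02 and that of CKO HFD over CKO normal diet from 0.43 to -0.11.

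Cells held 1.90 of the 7 members on average at equal depth in CKO HFD, 1.60 in WT HFD, 1.94 in CKO normal diet and 1.73 in WT normal diet. All 7 were found together in 0.0131% of CKO HFD cells and in 0 cells of the other libraries. For each of the 21 pairs, the number of cells with both genes was set against the product of the single shares. Pairs whose product gave at least 5 cells numbered 21, 20, 17 and 17, of which 3, 2, 0 and 1 were over 1.5 times the product and 5, 7, 6 and 8 were under it by as much. The ratio cannot exceed 1 divided by the larger single share. Retnla was held by 72.3% of cells in CKO HFD and 74.7% in CKO normal diet, so no pair with it could pass 1.5 times there. Its pairs with rare genes could still fall under the product by as much. Counts over and under, and ratios of common and rare genes, therefore differ in possible range. These counts describe cells of 1 library each, and the shallow counts at 2000 UMIs hide part of any overlap.

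Ratios above 1 were found within a block of Retnla, Mgl2 and Clec10a, where that of Retnla and Clec10a in WT HFD was 1.03 (0.957 to 1.10), and within a block of Arg1, Chil3 and Tgm2 under HFD. Il4ra belonged clearly to neither block. Retnla and Mgl2 were found together in 4056 cells of CKO HFD, 1.19 times the product, and in 1.27, 1.11 and 1.17 times the product in WT HFD, CKO normal diet and WT normal diet. Mgl2 and Clec10a were together 1.18, 1.11, 1.26 and 1.38 times as often as the product. Il4ra met Clec10a 1.26, 1.2, 1.23 and 1.19 times and Retnla 1.12, 1.2, 0.955 and 0.987 times as often as the product. In CKO HFD it met Arg1 1.29 times, with an interval of 0.939 to 1.73. In CKO HFD, Arg1 and Tgm2 were together in 141 cells, 4.42 times the product (3.72 to 5.21), Arg1 and Chil3 in 109 cells, 3.74 times (3.07 to 4.51), and Chil3 and Tgm2 in 75 cells, 2.32 times (1.82 to 2.90). In WT HFD, Arg1 and Tgm2 were together in 18 cells, 2.98 times the product (1.76 to 4.70), and Chil3 and Tgm2 in 16 cells, 2.05 times (1.17 to 3.33). The third pair, Arg1 and Chil3, had 8 cells in WT HFD with an interval of 0.896 to 4.09 times the product, too few to count. Under the normal diet Chil3 and Tgm2 were together in 10 cells of CKO and 14 cells of WT, 2.59 times (1.24 to 4.77) and 3.13 times (1.71 to 5.25) a product that was likewise too small to count.

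Across the blocks most pairs met less often than the product. Chil3 and Mgl2 were together 0.507, 0.298, 0.397 and 0.205 times as often in CKO HFD, WT HFD, CKO normal diet and WT normal diet, and Retnla and Tgm2 0.674, 0.567, 0.513 and 0.455 times. In Chil3-positive cells of CKO HFD the median Retnla count was 0 of 2000 UMIs, against 13 in Chil3-negative cells, and in Mgl2-positive cells it was 23, against 1 in Mgl2-negative cells. Arg1-positive cells of CKO HFD had a median of 1 Retnla UMI, against 12 in negative cells, yet 58.0% of them held Retnla. The separation was therefore one of degree: cells of the Arg1, Chil3 and Tgm2 block held less Retnla, and many still held some. Of the pairs outside both blocks, Chil3 and Il4ra in WT normal diet were over the threshold, at 1.81 times the product, and fell short of it with another random thinning.

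**Figure D5:**
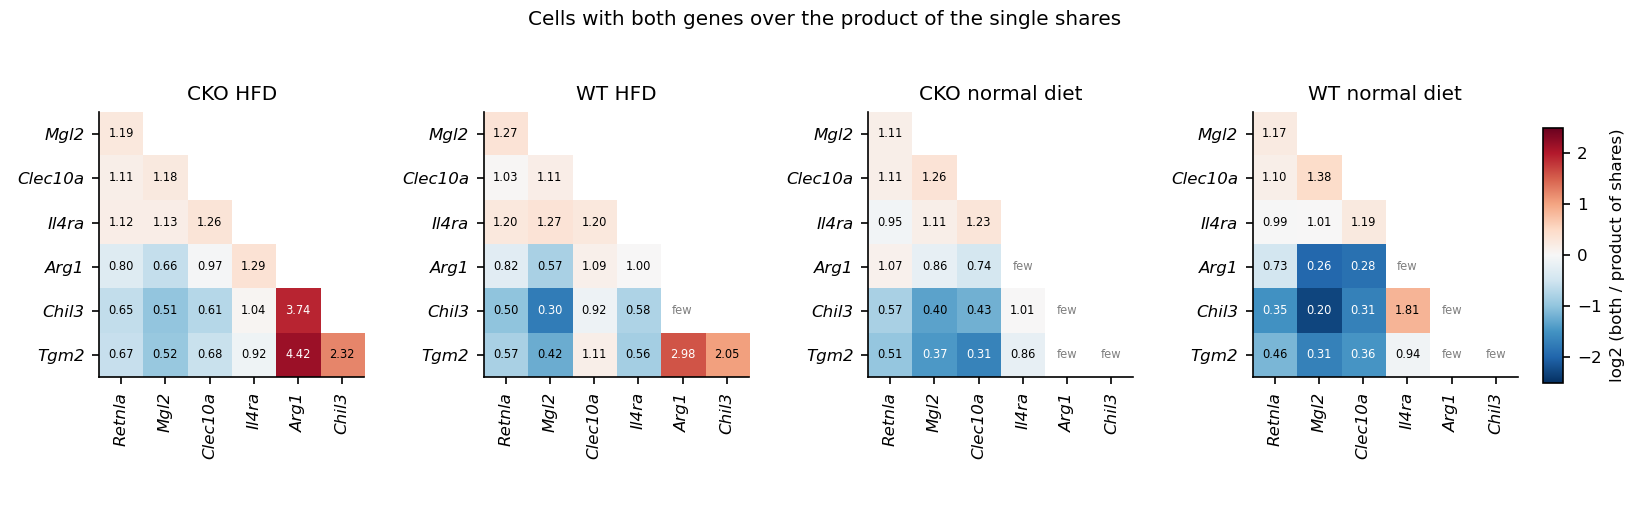
Number of cells with both genes over the product of the single shares, for the 21 pairs in each library at 2000 UMIs per cell; colours give log2 of the printed ratio, and "few" marks pairs whose product is under 5 cells. The pairs of Arg1, Chil3 and Tgm2 reach 4.42 in CKO HFD and 2.98 in WT HFD, while pairs of these genes with Retnla or Mgl2 are mostly below 1.

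Genes outside the set that followed a member most closely across cells were found by Pearson's r of log counts at equal depth, over libraries where at least 5% of cells held the member. The values describe the cells of each library, which share depth and preparation. For Retnla they were Ccl6 (mean r 0.40), F13a1 (0.37) and Rbpj (0.32), and for Mgl2 they were Pf4 (0.38), Mrc1 (0.38) and C1qa (0.37). For Clec10a they were Selenop (0.36), Plekhg5 (0.33, from the normal diet libraries) and F13a1 (0.33). For Tgm2 they were Itgal (0.46), Ace (0.44) and Gsr (0.42), each from the normal diet libraries only. For Il4ra the highest mean r was 0.10, for Mrc1, and counts this sparse cannot show whether any gene follows it. Arg1 and Chil3 passed the share in CKO HFD only. Between members the highest r was that of Retnla and Mgl2 under HFD, at 0.45 in CKO and 0.41 in WT, with 0.15 in CKO and 0.13 in WT under the normal diet.

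The ligands were scarcely measured in these sorted cells: Il4 stood at 0.423, 0.134, 0.775 and 0.505 CPM in CKO HFD, WT HFD, CKO normal diet and WT normal diet, and Il13 at 2.23, 0, 0.286 and 0.0459 CPM. Of 12 genes of IL-4 and IL-13 signalling, 7 could be compared between CKO HFD and WT HFD, with 1 higher and 1 lower, against 5.38% and 20.7% of all genes. Under the normal diet 8 could be compared between CKO and WT, with 0 past the threshold, against 0.493% higher and 0.592% lower. With HFD 5 of 8 were lower and 0 higher in WT, against 24.6% and 13.1% of all genes, and the same counts held in CKO, against 42.6% and 11.8%. The list's median log2 ratios were -0.81 in WT and -0.99 in CKO, beside -0.18 and -0.44 for all genes tested. Jak1, a kinase bound to the receptor and the list's most abundant gene, stood at 157, 239, 362 and 338 CPM in CKO HFD, WT HFD, CKO normal diet and WT normal diet. It was the 1 gene lower in CKO HFD than in WT HFD, with a ratio of 0.657, and it was also lower in CKO HFD than in CKO normal diet, with a ratio of 0.434. Stat6, which carries the IL-4 signal, stood at 54.2, 59.9, 63.3 and 65.1 CPM and passed the threshold in none of the comparisons. Il13ra1, the partner chain of Il4ra in the receptor for IL-13, stood at 22.3, 20.0, 48.0 and 44.0 CPM, and Cish, a feedback gene of STAT signalling, at 9.26, 2.61, 24.4 and 23.4 CPM.

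Of 10 regulators of alternative activation, 2 were higher and 4 lower in CKO HFD than in WT HFD, against 5.38% and 20.7% of all genes tested. Cebpb, a transcription factor through which Arg1 can be raised, stood at 1118 CPM in CKO HFD, 614 CPM in WT HFD, 881 CPM in CKO normal diet and 960 CPM in WT normal diet. Klf4 stood at 629, 410, 737 and 636 CPM, and Pparg, a nuclear receptor of fatty acid handling, at 35.7, 113, 80.8 and 92.7 CPM. Irf4, which acts downstream of STAT6, was lower with HFD in both genotypes, at 31.2 CPM in CKO HFD and 28.7 CPM in WT HFD against 96.6 CPM in CKO normal diet and 98.5 CPM in WT normal diet.

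Of 20 other targets of IL-4 in mouse macrophages, 12 could be compared between CKO HFD and WT HFD, with 3 higher and 1 lower, against 5.38% and 20.7% of all genes. The chemokine gene Ccl24 stood at 353 CPM in CKO HFD, 76.1 CPM in WT HFD, 270 CPM in CKO normal diet and 270 CPM in WT normal diet, and Ccl17 at 37.4, 3.95, 38.1 and 28.7 CPM. Both were lowest in WT HFD. Fn1 and Mrc1, the list's most abundant genes, stood at 1079, 887, 2311 and 2358 CPM and at 859, 1095, 1374 and 1262 CPM. With HFD 9 of 15 were lower and 0 higher in WT, against 24.6% and 13.1% of all genes. In CKO 7 of 16 were lower and 2 higher, which is near the 42.6% and 11.8% of all genes.

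The arginine and polyamine list was read beside Arg1. Between CKO HFD and WT HFD 2 of 8 compared genes were higher and 1 lower, against 5.38% and 20.7% of all genes. Under the normal diet 0 of 6 passed the threshold between CKO and WT, against 0.493% higher and 0.592% lower. With HFD 2 of 6 compared genes were higher and 0 lower in WT, against 13.1% and 24.6% of all genes, and 3 of 8 higher and 1 lower in CKO, against 11.8% and 42.6%. Odc1, which turns ornithine into putrescine, stood at 90.7, 111, 64.0 and 66.5 CPM in CKO HFD, WT HFD, CKO normal diet and WT normal diet, and Sms, which makes spermine, at 55.2, 70.3, 62.9 and 66.2 CPM. Srm, which makes spermidine, stood at 31.2, 33.9, 14.1 and 11.8 CPM, and Ass1, which starts the making of arginine from citrulline, at 13, 3.52, 4.90 and 7.71 CPM. Of the hypoxia list 2 of 8 compared genes were higher and 1 lower in CKO HFD than in WT HFD, against 5.38% and 20.7% of all genes. Ldha, a glycolytic enzyme gene, stood at 266, 304, 214 and 214 CPM, and the cytokine gene Mif at 200.4, 123, 71.2 and 78.7 CPM. Hilpda stood at 153 and 100.2 CPM in CKO HFD and WT HFD, against 25.1 and 38.5 CPM in CKO normal diet and WT normal diet.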

How the data were processed

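The labels describe 4 single-cell libraries of sorted mouse fat macrophages, 1 per group. The deposited matrices hold unnormalized UMI counts, written by Cell Ranger 7.0.0 per the file headers, on GRCm38 per the submitters' processing notes. The sources used here do not say if reads in introns were counted. No count model was run, since each group is 1 library.

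UMIs were summed per library and scaled to 1000000 (CPM). Intervals are exact Poisson for levels, exact conditional binomial for ratios and exact Clopper-Pearson for shares, at 95%, and cover counting error only. Shares, sets and pairs used cells thinned to 2000 UMIs (seed 11). Fold counts used genes that reached 10 CPM in either library. A fibroblast-like, lymphoid-like or dendritic-like cell held at least 3 different markers of its list after thinning. Doublets were kept, because Scrublet (scanpy 1.11.5) called 0 cells in each library and so had not worked. Leaving out the top scores was tried instead. Coordinates came from GENCODE M21. Promoters came from RefSeq. TMM factors came from edgeR 4.0.16 on the summed counts. Other tools were Python 3.11.15, NumPy 2.4.6, SciPy 1.17.1, Biopython 1.88 and R 4.3.3. The ratio step was checked on simulated counts.

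The 7 members and the lists beside them were chosen with earlier results of these data known. All members are named. Of each list at most 4 genes are named, from the most abundant and those past the threshold. The genes taken from these, the ligands Il4 and Il13 named besides, and the genes counted in Arg1-positive, Chil3-positive and Tgm2-positive cells were chosen after their values had been seen.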

Additional observations from a re-analysis of the deposited data

How the results depend on the processing

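Each result was recomputed under the alternatives, 1 choice at a time. With a threshold of 2 times, the members past it numbered 2 in place of 4 for CKO HFD over WT HFD (Arg1 and Chil3) and 2 in place of 4 for WT HFD over WT normal diet. Under the other 12 settings these counts stayed between 3 and 5, and the count for CKO over WT under the normal diet stayed at 0 throughout. Pairs over 1.5 times the product numbered 5 in CKO HFD, 1 in WT HFD and 0 in WT normal diet when cells were thinned to 1000 UMIs, 1 in CKO HFD, 0 in WT HFD and 1 in CKO normal diet when at least 2 UMIs were asked of a gene, and 0 in WT normal diet with another random thinning. The cause of these moves was not tested. The number of members highest in the same set in all 4 libraries was 5 under 5 of the 6 alternatives and 4 with another random thinning. Sets made from Folr2, Gpnmb and Plac8 brought in Chil3 and lost Tgm2. Of the single ratios, Arg1 in CKO HFD over WT HFD ran from 3.69 to 4.85, Chil3 from 2.65 to 3.71, Retnla from 1.43 to 1.80 and Tgm2 from 1.53 to 1.82. TMM scaling moved the all-gene median log2 ratio to 0.00 for CKO HFD over WT HFD, 0.10 for WT HFD over WT normal diet and 0.09 for CKO HFD over CKO normal diet. Weighting the 5 sets equally was added after seeing the data. No paired analysis was possible because each group is 1 library. Few counts limit what can be said of Arg1 under the normal diet, where it had 233 UMIs in CKO normal diet and 169 in WT normal diet.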
